A study of Homo sapiens with 8 samples.

Results

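The genes described here encode the chromatin complexes that the long non-coding RNA HOTAIR is known to bind: the Polycomb repressive complex PRC2 and the LSD1/CoREST/REST complex. They were chosen by their roles, and the 10 of them (EZH2, EZH1, SUZ12, EED, RBBP4, RBBP7, JARID2, KDM1A, RCOR1 and REST) were all among the 13771 genes measured. PRC2 places methyl groups on lysine 27 of histone H3, a mark of silenced genes. Its catalytic subunit is EZH2 or the related EZH1, SUZ12 and EED are needed for its activity, RBBP4 and RBBP7 are histone-binding subunits shared with other complexes, and JARID2 is an accessory subunit that helps to bring the complex to chromatin. LSD1, the product of KDM1A, removes methyl groups from lysine 4 of histone H3, RCOR1 (CoREST) lets it act on nucleosomes, and REST is the DNA-binding repressor of neuronal genes that recruits them. HOTAIR is known to touch PRC2 through its 5′ end and LSD1 through its 3′ end, so the question for these genes is whether their transcripts differ when HOTAIR is supplied.

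RNA was sequenced from 2 human breast epithelial cell lines of one lineage, with 2 libraries in each of 4 groups. MCF10A is a non-tumorigenic breast epithelial line, and MCF10 DCIS.COM (DCIS.COM) derives from the MCF10 series and forms lesions like ductal carcinoma in situ. Each line was stably transduced either with the pCDH lentiviral vector carrying full-length HOTAIR (pCDH-HOTAIR) or with the vector alone (pCDH-empty), and all 4 groups were selected with puromycin. The lines were grown in different media: DMEM/F-12 and horse serum were common to both, and EGF, hydrocortisone, insulin and cholera toxin were added for MCF10A alone. A difference between the lines and a difference between their media therefore cannot be told apart. The labels do not say that the libraries of a group came from separate cultures, so every p-value here measures the spread between these libraries, which may be technical.

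The libraries held between 19306864 and 34884841 reads on the genes of the table, the 2 shallowest being those of MCF10A pCDH-HOTAIR. The 10 genes were all well covered, from 244 reads for EZH1 in its lowest library to 8663 for RBBP7 in its highest. HOTAIR was high in the libraries labelled with its vector. On the log2 CPM scale (reads of a gene relative to the library's total) MCF10A controls stood at 0.60 and 0.66 and transduced cells at 7.90 and 7.92. In DCIS.COM the values were 2.01 and 2.40 against 7.66 and 7.57. Of 10 mammary epithelial markers all were in the table, with a summed level of 15369 to 17417 CPM in the MCF10A libraries and 6338 to 7929 in those of DCIS.COM. Of 11 markers of other cell types 3 were in the table (CD68, PECAM1 and ESR1), summing to 17.9 to 28.8 CPM. Between the lines the log2 difference of PECAM1 was 2.32 with the empty and 2.56 with the HOTAIR vector (higher in DCIS.COM), that of CD68 was −2.00 and −2.17 (lower), and their part in the differences between the lines was not tested. The immune marker PTPRC and the endothelial CDH5 were not in the table.

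The promoter windows of the 3 genes that differed most between the lines are shown because EZH2, RCOR1 and JARID2 carry the main result below. Each is the 250 bases before the RefSeq start site on GRCh38.p14, 5′ to 3′ on the gene's strand, and capitals mark the CCAAT letters on either strand (CCAAT or ATTGG), the box bound by NF-Y.
EZH2, chr7:148884292-148884541, minus strand: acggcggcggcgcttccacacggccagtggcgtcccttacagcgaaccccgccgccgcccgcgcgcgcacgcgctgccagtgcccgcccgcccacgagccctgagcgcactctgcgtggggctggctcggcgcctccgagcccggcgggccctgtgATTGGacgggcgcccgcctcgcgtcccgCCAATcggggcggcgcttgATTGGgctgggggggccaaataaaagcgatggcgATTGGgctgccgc
RCOR1, chr14:102592399-102592648, plus strand: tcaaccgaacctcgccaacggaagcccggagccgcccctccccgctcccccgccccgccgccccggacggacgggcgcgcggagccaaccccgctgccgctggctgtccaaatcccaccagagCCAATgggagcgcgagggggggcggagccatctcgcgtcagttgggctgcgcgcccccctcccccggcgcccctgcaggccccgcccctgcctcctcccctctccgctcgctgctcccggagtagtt
JARID2, chr6:15245819-15246068, plus strand: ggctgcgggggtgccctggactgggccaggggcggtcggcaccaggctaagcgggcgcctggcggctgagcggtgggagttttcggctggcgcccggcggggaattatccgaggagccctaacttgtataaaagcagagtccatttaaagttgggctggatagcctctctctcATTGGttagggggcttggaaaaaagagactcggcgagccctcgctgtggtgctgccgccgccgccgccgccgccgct
The 3 windows were GC-rich at 75.6%, 76.4% and 65.6%, against a median of 58% over the 27305 RefSeq promoters. EZH2 held 4 CCAAT matches, RCOR1 1 and JARID2 1. All 10 genes were matched to a RefSeq promoter. On both strands, CCAAT was found in 7 of the 10 windows and in 33.0% of all promoters, and GGGCGG, the GC box of SP1-type factors, in 9 of 10 and in 42.3%. The E2F letters TTTCCCGC, TTTGGCGC, TTTCGCGC or TTTGCCGC, which can share bases with a GC box, were found in EZH1 and SUZ12 and in 2.79% of all promoters. The ETS letters CCGGAA were in none of the 10 windows and in 14.8% of all promoters. These matches describe letters in a window and were not tested against expression.

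On the GRCh37 (hg19) annotation, the PRC2 genes are EZH2 at chr7:148504349-148581413, EZH1 at chr17:40852293-40897067, SUZ12 at chr17:30264026-30328057, EED at chr11:85912254-85989855, RBBP4 at chr1:33116743-33151812, RBBP7 at chrX:16857406-16888485 and JARID2 at chr6:15246300-15522273. The LSD1 complex genes are KDM1A at chr1:23345936-23410182, RCOR1 at chr14:103058986-103196898 and REST at chr4:57774042-57832974. RBBP4 overlaps SYNC, RBBP7 overlaps TXLNG and REST overlaps NOA1, each on the opposite strand, and whether the counting used strand is not given in the sources used here. Reads of these pairs may therefore not be fully separated.

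Per kilobase of the canonical transcript, RBBP7 was the most abundant of the 10 in every group and KDM1A the next, and EZH1 was the least abundant. RBBP7 averaged 6.36 ± 0.03 on the log2 (CPM per kb) scale in MCF10A pCDH-empty and 6.61 ± 0.20 in DCIS.COM pCDH-empty (SD, n = 2), and KDM1A 5.56 ± 0.05 and 5.44 ± 0.13. EZH1 averaged 1.31 ± 0.12 and 1.21 ± 0.08. The order in between differed by line. RCOR1 held the third place in both MCF10A groups and the eighth in both DCIS.COM groups, whereas EZH2 held the seventh in MCF10A and moved up to the third or the fourth in DCIS.COM. Neighbours whose libraries overlapped were RBBP4 and EED in MCF10A pCDH-empty, and EZH2 and SUZ12, SUZ12 and RBBP4, and EED and REST in DCIS.COM pCDH-empty. Ranks rest on the transcript length used: over the union of all exons KDM1A fell from the second place to the fifth in all groups and EZH2 took the seventh to ninth place, while RBBP7 stayed first and EZH1 last.

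**Figure D1:**
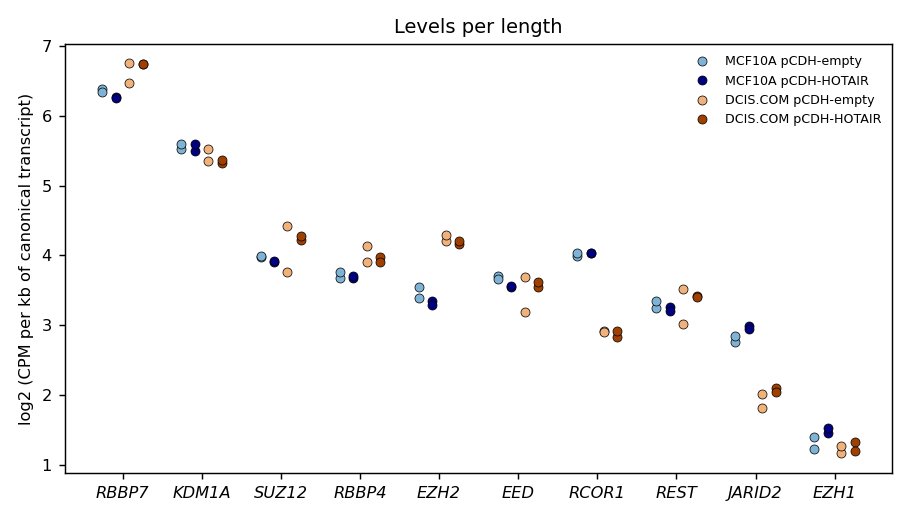
Level of the 10 genes per kilobase of canonical transcript (y axis, log2 of CPM per kb), one point per library, coloured by group. RBBP7 and KDM1A lie at the top and EZH1 at the bottom in all 4 groups, and RCOR1, EZH2 and JARID2 separate by cell line.

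Within complexes, the ratio of partner genes per kilobase also differed by line more than by vector for EZH2 over EZH1, RCOR1 over KDM1A and JARID2 over SUZ12. EZH2 was 4.47 times EZH1 in MCF10A pCDH-empty and 3.54 times with HOTAIR, against 8.21 and 7.58 times in DCIS.COM. RCOR1 stood at 0.341 and 0.349 of KDM1A in MCF10A and at 0.173 and 0.180 in DCIS.COM, and JARID2 at 0.440 and 0.518 of SUZ12 against 0.221 and 0.220. RBBP7 over RBBP4 was 6.26 with the empty vector and 5.95 with HOTAIR in MCF10A, against 6.02 and 6.97 in DCIS.COM. For this pair the ratio did not differ by line more than by vector. The 2 DCIS.COM pCDH-empty libraries differed, however. On the log2 scale RBBP7 over RBBP4 was 2.34 in library 1 and 2.84 in library 2, and JARID2 over SUZ12 was −1.95 and −2.41. The size of each ratio rests on the transcript length used. Over the union of all exons RCOR1 averaged 3.90 and KDM1A 2.99 on the log2 (CPM per kb) scale in MCF10A pCDH-empty. In DCIS.COM pCDH-empty they averaged 2.80 and 2.87. On that scale EZH2 averaged 1.45 and EZH1 0.72 in MCF10A pCDH-empty. The ratios are given as description, without a test.

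One library stood apart. In DCIS.COM pCDH-empty the difference between the 2 libraries had a median size of 0.212 log2 units over all genes, against 0.065 to 0.084 in the other groups. Over all genes the difference followed GC content: library 1 was lower than library 2 by a median of 0.36 in the lowest of 5 equal groups of genes by GC and higher by 0.16 in the highest. Of the 10 genes, most also differed between these libraries, in part along GC. SUZ12, at 38.2% GC, was 0.66 lower in library 1 than in library 2, REST 0.51 lower, EED 0.50 lower, RBBP7 0.28 lower and JARID2 0.20 lower, while RBBP4 was 0.23 and KDM1A 0.18 higher. RBBP4, at 41.4% GC, and JARID2, at 49.9%, went against the trend, and EED stayed 0.47 lower after a GC correction. EZH2, EZH1 and RCOR1 differed by at most 0.11. The main values below that rest on this library are given with and without it.

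**Figure D2:**
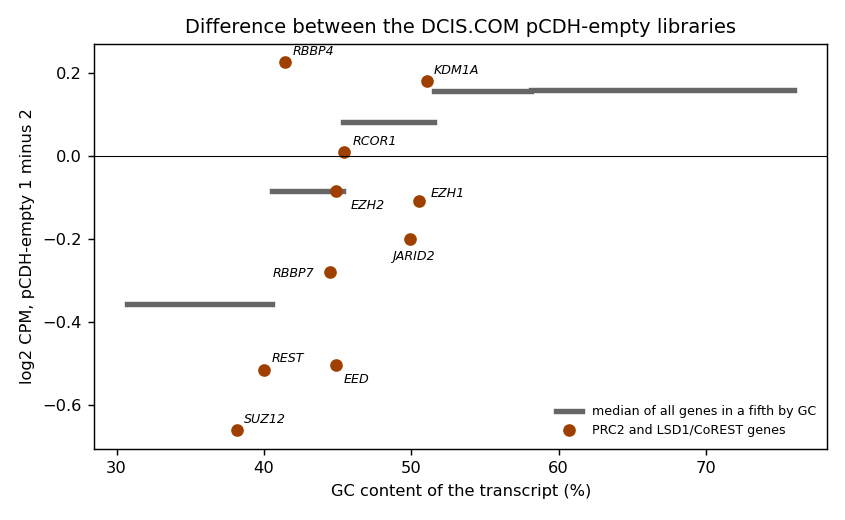
Difference between the 2 DCIS.COM pCDH-empty libraries (y axis, log2 CPM, library 1 minus library 2) against GC content of the gene (x axis, %). Grey bars are medians over 5 equal groups of all genes by GC, running from −0.36 to 0.16, and points are the 10 genes, with SUZ12, REST and EED lowest.

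Differences are given on the log2 CPM scale with their SE, tested with limma over all 13771 genes with Benjamini-Hochberg adjustment. A gene was called at an adjusted p under 0.05 with a fold change of at least 1.5, and the count at the adjusted p alone stands beside it.

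In MCF10A, the transcripts of all 10 genes with HOTAIR lay within 1.5-fold of their level with the empty vector. With limma 0 of the 10 were called, 0 passed the adjusted p alone and 0 had an unadjusted p under 0.05, and limma-voom also called 0. Among all genes 0.0218% were called, with or without the fold threshold, so few calls were available to any group of genes in this fit. Its spread was estimated over all groups, so the MCF10A results also carry the spread between the DCIS.COM controls. With only the MCF10A groups fitted, 0 of the 10 and 0.00726% of all genes passed the adjusted p of limma. The differences ran from −0.16 to 0.18, the smallest adjusted p was 0.762, and the 95% confidence intervals of the 10 differences lay between −0.48 and 0.42. EZH2 stood at 4.96 and 4.80 log2 CPM without HOTAIR and at 4.75 and 4.69 with it. Both HOTAIR libraries were below both controls, by 0.16 ± 0.08 (SE) on average, and the difference did not pass the test (adjusted p = 0.762). EZH1, the alternative catalytic subunit, lay the other way, with 3.61 and 3.44 against 3.66 and 3.74. Its difference of 0.18 ± 0.11 did not pass either (adjusted p = 0.823).

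The other PRC2 genes moved less than their intervals. SUZ12 read 6.14 and 6.16 in the MCF10A controls and 6.08 and 6.09 with HOTAIR, EED 4.76 and 4.73 against 4.60 and 4.62, and RBBP7 7.57 and 7.53 against 7.46 and 7.44. In each of these 3 genes the HOTAIR libraries lay below both controls. RBBP4 overlapped, with 6.66 and 6.74 against 6.65 and 6.68. JARID2 lay higher with HOTAIR, with 5.34 and 5.42 against 5.58 and 5.53. In the LSD1 complex, KDM1A overlapped between the groups at 7.16 and 7.22 against 7.12 and 7.23, and so did REST at 6.11 and 6.22 against 6.13 and 6.07. RCOR1 was nearly level at 6.52 and 6.55 against 6.56 and 6.55, its groups only just apart. In all, 7 of the 10 genes did not overlap between the 2 groups, beside 47.2% of all genes.

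In DCIS.COM 0 of the 10 genes were called as well, 0 passed the adjusted p alone, 0 had an unadjusted p under 0.05, and limma-voom called 0. Of all genes 0.0871% were called and 0.0944% passed the adjusted p alone. Differences ran from −0.09 to 0.16, the smallest adjusted p was 0.348 (JARID2), and the 95% intervals lay between −0.27 and 0.57. EZH2 read 5.62 and 5.70 log2 CPM in the controls and 5.57 and 5.61 with HOTAIR, without overlap. Its difference was −0.07 ± 0.08. JARID2 read 4.39 and 4.59 against 4.68 and 4.62, again without overlap, a difference of 0.16 ± 0.09. It was 0.06 without control library 1 and 0.26 without control library 2, and the EZH2 difference in these fits was −0.11 and −0.03. These were the only 2 of the 10 genes whose groups did not overlap, beside 49.2% of all genes. EZH1 overlapped at 3.37 and 3.48 against 3.53 and 3.41, and RCOR1 at 5.43 and 5.42 against 5.36 and 5.44.

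For the genes that differed between the 2 DCIS.COM controls, the comparison turned on which control was used. SUZ12 read 5.92 in control library 1 and 6.58 in library 2, with 6.38 and 6.45 in the HOTAIR libraries between them. EED read 4.25 and 4.76 with 4.61 and 4.68 between, and REST 5.88 and 6.39 with 6.29 and 6.28 between. RBBP7 (7.66 and 7.94 against 7.93 and 7.94), RBBP4 (7.11 and 6.89 against 6.95 and 6.89) and KDM1A (7.15 and 6.97 against 6.95 and 6.99) had HOTAIR libraries that sat closer to control library 2 than to library 1. Without control library 1, SUZ12 was 0.17 below the control, EED 0.11 below and REST 0.11 below, and none of the 10 passed. Without control library 2 instead, 7 of the 10 passed the adjusted p alone, with SUZ12 0.49, REST 0.40 and EED 0.39 above the remaining control, as did 39.6% of all genes, and none reached the 1.5-fold threshold. The lone library left in such a fit is assumed to vary like the other groups.

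**Figure D3:**
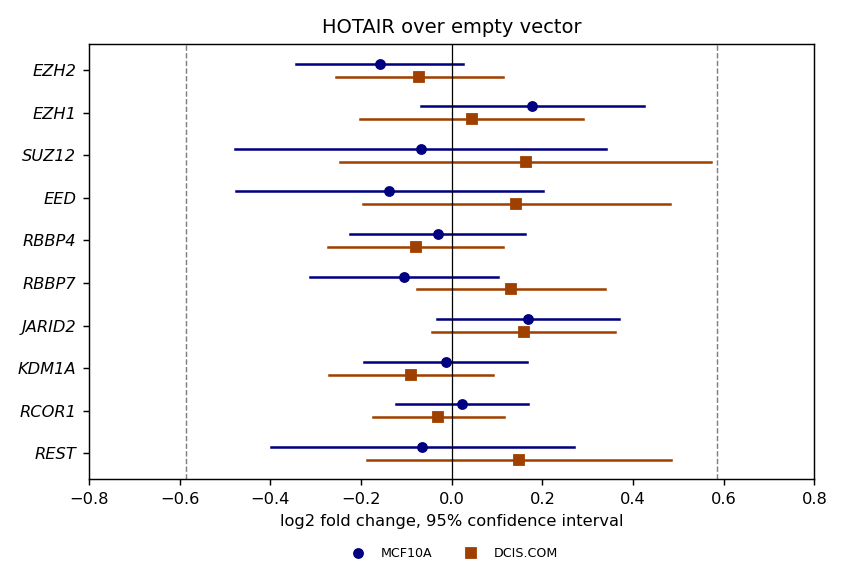
HOTAIR over empty vector in MCF10A (circles) and DCIS.COM (squares) for the 10 genes (x axis, log2 fold change). Bars are 95% confidence intervals from limma and dashed lines mark 1.5-fold; all 20 bars lie inside them.

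How firm these bounds are differed between genes. EZH2, EZH1, RBBP4, RBBP7, JARID2, KDM1A and RCOR1 kept intervals inside 1.5-fold in both lines in every other fit that was run, with each of the 8 libraries left out in turn included. SUZ12, EED and REST did not: the interval of 1 or more of them passed 1.5-fold in DCIS.COM under limma without the trend, under limma-voom with library totals, when only the 2 groups compared were fitted, and when some libraries were left out. In MCF10A SUZ12 and EED passed it when 1 of the 4 MCF10A libraries was left out.

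Taking both lines together, JARID2 was the gene with the smallest p. Its mean difference over the lines was 0.16 ± 0.06, a fold of 1.12, with an unadjusted p of 0.0293 and an adjusted p of 0.350, and it was higher in 4 of 4 HOTAIR libraries than in both controls of the same line. EZH2 averaged −0.12 ± 0.06 (adjusted p = 0.438) and was lower in 4 of 4. These 2 genes were the ones that kept 1 direction without overlap in both lines, which 12.2% of all genes did. With limma 0 of the 10 were called over both lines, 0 passed the adjusted p alone and 1 had an unadjusted p under 0.05. Limma-voom called 0. Of all genes 0.0363% were called, 0.0871% passed the adjusted p alone and 12.5% had an unadjusted p under 0.05. Without DCIS.COM control library 1 the JARID2 difference over both lines was 0.11, and without control library 2 it was 0.21.

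The HOTAIR difference in DCIS.COM minus that in MCF10A was tested directly as an interaction. It passed for 0 of the 10 genes by limma, with 0 at an unadjusted p under 0.05 and 0 by limma-voom, and for 0.0436% of all genes. The largest values were 0.28 ± 0.21 for EED, 0.24 ± 0.13 for RBBP7, 0.23 ± 0.25 for SUZ12 and 0.21 ± 0.20 for REST, with adjusted p from 0.498 to 0.672. JARID2 was 0.20 lower in DCIS.COM control library 1 than in the other control, and its interaction was −0.01. All 4 genes with the largest values were low in control library 1 too, and the cause was not tested. Without that library they were 0.03, 0.10, −0.10 and −0.04, and without control library 2 all 4 passed, as did 32.1% of all genes.

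The cell lines differed in 3 of the 10 genes. EZH2 was higher in DCIS.COM than in MCF10A, and RCOR1 and JARID2 were lower, whichever vector the cells carried. With the empty vector 46.3% of all genes were called between the lines, and with the HOTAIR vector 43.7%, so 3 of 10 is not above the background. The median size of the difference was 0.24 over the 10 genes and 0.54 over all genes with the empty vector, and 0.30 against 0.50 with the HOTAIR vector. The 2 comparisons use separate libraries.

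EZH2 spanned 4.69 to 4.96 log2 CPM in the 4 MCF10A libraries and 5.57 to 5.70 in the 4 of DCIS.COM. Its fold was 1.72 with the empty vector (log2 0.78 ± 0.08, 95% interval 0.60 to 0.96, adjusted p = 5.02e-05) and 1.82 with the HOTAIR vector (0.87 ± 0.08, adjusted p = 2.79e-05). The lines did not overlap. RCOR1 spanned 6.52 to 6.56 in MCF10A and 5.36 to 5.44 in DCIS.COM, the widest gap of the 10 genes relative to its spread within lines. It was 2.15-fold lower in DCIS.COM with the empty vector (−1.10 ± 0.06, adjusted p = 1.61e-06) and 2.23-fold lower with the HOTAIR vector (−1.16 ± 0.06, adjusted p = 1.29e-06). JARID2 spanned 5.34 to 5.58 in MCF10A and 4.39 to 4.68 in DCIS.COM, 1.85-fold (−0.89 ± 0.09, adjusted p = 3.92e-05) and 1.87-fold lower (−0.90 ± 0.09, adjusted p = 3.87e-05). These 3 calls held without DCIS.COM control library 1, where EZH2 was 0.82, RCOR1 −1.11 and JARID2 −0.79 with the empty vector.

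**Figure D4:**
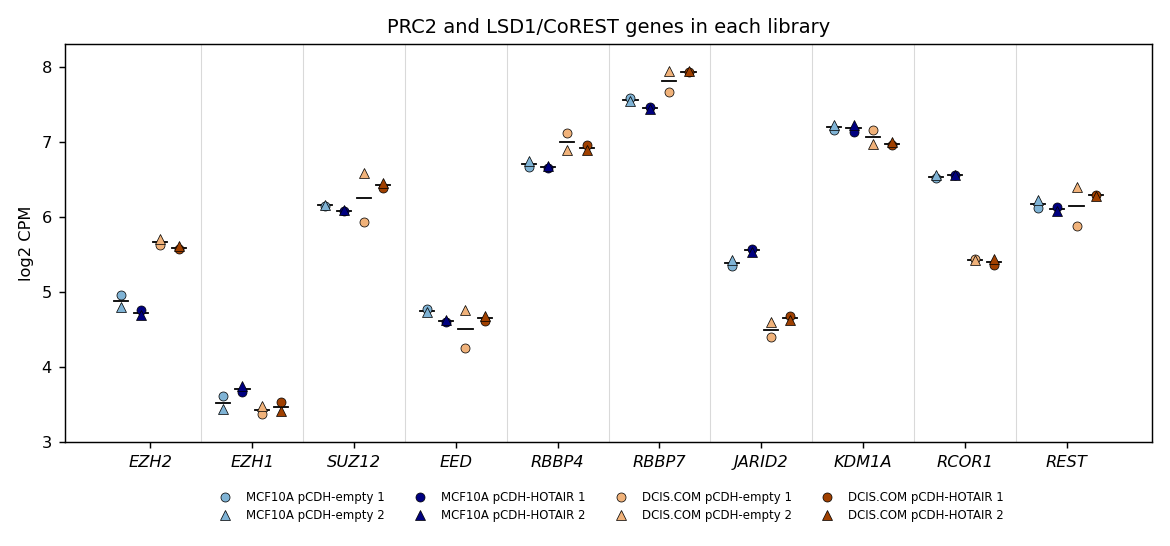
Level of the 10 genes in each library (y axis, log2 CPM, not corrected for length), circles for library 1 and triangles for library 2 of each group, with a line at the group mean. EZH2 is higher and RCOR1 and JARID2 are lower in all 4 DCIS.COM libraries, and the 2 DCIS.COM pCDH-empty libraries stand apart for SUZ12, EED and REST.

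Both histone-binding subunits were slightly higher in DCIS.COM. RBBP4 was 0.30 ± 0.08 higher with the empty vector (adjusted p = 0.0118) and 0.25 ± 0.08 with the HOTAIR vector (adjusted p = 0.0263), and RBBP7 0.25 ± 0.09 (adjusted p = 0.0378) and 0.48 ± 0.09 (adjusted p = 0.00165). These passed the adjusted p alone and not the fold. With the empty vector they depended on the control library: without library 1 RBBP4 was 0.19 and RBBP7 0.39 higher, and without library 2 they were 0.42 and 0.11 higher, all 4 with an adjusted p under 0.05. KDM1A was 0.20 ± 0.08 lower in DCIS.COM with the HOTAIR vector (adjusted p = 0.0482) and 0.13 ± 0.08 lower with the empty vector (adjusted p = 0.179). At the adjusted p alone the counts were 5 of 10 with the empty vector, beside 68.2% of all genes, and 6 of 10 with the HOTAIR vector, beside 65.5%. In 5 of the 10 genes (EZH2, RCOR1, JARID2, RBBP4 and RBBP7) the 4 libraries of one line did not overlap the 4 of the other, beside 70.2% of all genes.

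SUZ12, EED, REST and EZH1 did not pass in either line comparison. SUZ12 was 0.34 ± 0.18 higher in DCIS.COM with the HOTAIR vector, at 6.38 and 6.45 against 6.08 and 6.09, without overlap (adjusted p = 0.127). Its SE draws on all 8 libraries, the DCIS.COM controls included. When only the 4 HOTAIR-vector libraries were fitted with limma, the same difference had an adjusted p of 8.80e-05. REST, 0.18 higher in DCIS.COM, had one of 0.00289. In that fit 9 of the 10 genes passed the adjusted p alone, as did 77.0% of all genes. Without DCIS.COM control library 1, 8 of the 10 genes passed the adjusted p alone with the empty vector and 9 with the HOTAIR vector, as did 72.0% and 76.6% of all genes. SUZ12 was then 0.44 (adjusted p = 5.20e-05), KDM1A −0.22 (adjusted p = 0.00720) and REST 0.23 (adjusted p = 0.00609) with the empty vector. Without control library 2 instead, SUZ12 was −0.22, REST −0.28 and EED −0.49 with the empty vector. The direction of SUZ12 and REST with the empty vector therefore turned on which control was used.

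**Figure D5:**
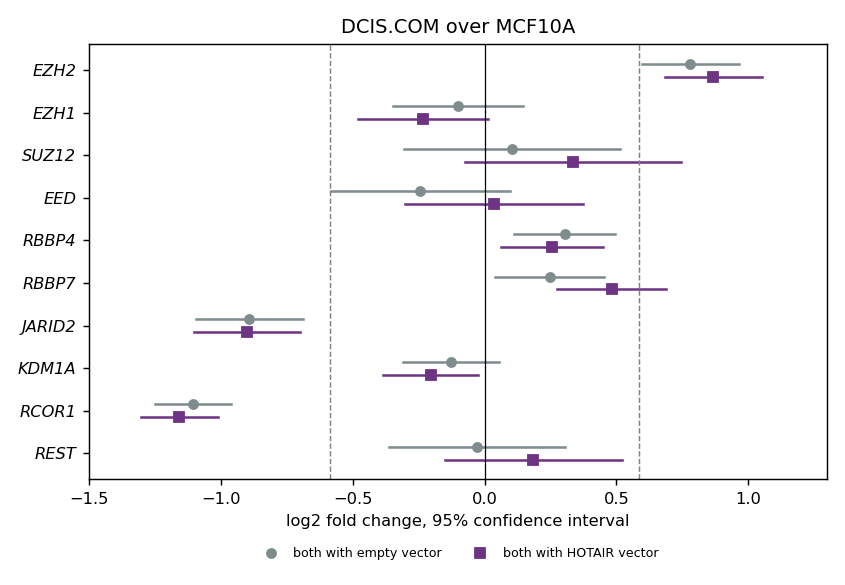
DCIS.COM over MCF10A for the 10 genes with both lines carrying the empty vector (circles) or the HOTAIR vector (squares) (x axis, log2 fold change). Bars are 95% confidence intervals from limma and dashed lines mark 1.5-fold; only EZH2, RCOR1 and JARID2 lie wholly outside them with both vectors.

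Lists of related genes were counted in the same fits. None of the genes of these lists was called in a HOTAIR comparison in either line. PRC2 accessory subunits other than JARID2 had 7 of 8 genes in the table, with a median HOTAIR difference of −0.05 in MCF10A and 0.20 in DCIS.COM, against −0.01 and 0.01 over all genes. The DCIS.COM median was 0.01 without control library 1 and 0.49 without control library 2. Further LSD1/CoREST and REST corepressor genes had 20 of 21, with medians of 0.06 and −0.05. PRC1 genes, whose complex binds the mark that PRC2 makes, had 23 of 24, with medians of 0.07 and −0.01. The enzymes that remove H3K27 methylation, acetylate that residue or methylate H3K4 had 15 of 15, with medians of 0.03 and −0.17. Of 13 genes reported elsewhere as HOTAIR targets 5 were in the table, with medians of 0.03 and 0.04, and of 30 neuronal targets of REST, 10 were, with medians of 0.07 and −0.10. The DZIP3 and MEX3B group of HOTAIR-bound ubiquitin ligases and their substrates had 3 of 4, with medians of −0.04 and 0.06, and the BAP1, ASXL and FOXK deubiquitinase genes 7 of 8, with medians of 0.00 and −0.11. In DCIS.COM the medians of the lists of complexes, targets and proliferation lay between −0.09 and 0.08 without control library 1 and, apart from the PRC2 accessory subunits, between −0.25 and 0.17 without control library 2.

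Between the lines, genes called with the same sign under both vectors made up 38.4% of the table. The PRC2 accessory subunits had 0 of 7 such genes by limma. At an unadjusted p under 0.05 they had 1 of 7 under the empty vector and 2 of 7 under the HOTAIR vector. The deubiquitinase genes had 0 of 7 called, with 3 and 4 at such a p. Of all genes 71.0% had such a p under the empty vector and 68.7% under the HOTAIR vector. Of the LSD1/CoREST list 1 of 20 was called, HMG20B, a subunit of the LSD1 complex, 2.25-fold and 2.03-fold higher in DCIS.COM (adjusted p = 1.39e-06 and 3.02e-06). Of the PRC1 list 7 of 23 were called, 6 higher and 1 lower. CBX6 and CBX7, which encode readers of methylated H3K27, were higher in DCIS.COM, CBX6 by 18.5-fold and 12.7-fold and CBX7 by 3.27-fold and 3.99-fold with the empty and the HOTAIR vector. SCML2, another Polycomb gene, had 0 or 1 read in the MCF10A libraries and 150 to 196 in those of DCIS.COM. It was in the table only through DCIS.COM, so its line difference was largely fixed in advance. Of the opposing enzymes 1 of 15 was called, the H3K4 methyltransferase KMT2C, 1.59-fold and 1.89-fold lower in DCIS.COM.

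Downstream lists also separated the lines. Of the 10 neuronal REST targets measured, 9 were called, 5 higher and 4 lower in DCIS.COM, beside 38.4% of all genes. REST itself did not pass. DPYSL3 had 1 to 6 reads in the MCF10A libraries and 1644 to 2198 in DCIS.COM, KCNH2 0 against 55 to 69, and VGF 2 to 9 against 88 to 149. Genes entered the table with a CPM above 0.5 in at least 2 libraries. DPYSL3, KCNH2 and VGF reached this only in DCIS.COM, so a line difference in them was largely fixed in advance. Without DCIS.COM control library 1 the count was 7 of 10. Of the reported HOTAIR targets 3 of 5 were called, all lower in DCIS.COM, among them the laminin gene LAMB3 (3.65-fold and 3.36-fold) and the transcription factor SNAI1 (2.08-fold and 2.63-fold). The E3 ligase gene DZIP3 was 1.83-fold and 2.33-fold higher.

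Most proliferation genes were higher in DCIS.COM, as EZH2 was. At the adjusted p alone 22 of 25 were higher with the empty vector and 24 with the HOTAIR vector, and 0 were lower. Of all genes 68.2% and 65.5% passed the adjusted p alone, in either direction. Of 25 proliferation genes 13 were called, all higher in DCIS.COM, beside 18.8% of all genes called higher under both vectors, among them MCM2, a subunit of the replicative helicase (2.91-fold and 2.54-fold), BIRC5 (2.20-fold and 2.39-fold) and the kinetochore gene CENPF (2.38-fold and 2.18-fold), and 12 were called without DCIS.COM control library 1. Their summed level was 2750 to 2997 CPM in the MCF10A libraries and 4455 to 5021 in those of DCIS.COM. In both lines it was lower with HOTAIR than with the empty vector, as EZH2 was, at 2750 to 2792 against 2945 to 2997 in MCF10A and 4455 to 4456 against 4845 to 5021 in DCIS.COM. With HOTAIR 0 of the 25 were called in either line by limma, with 5 at an unadjusted p under 0.05 in MCF10A, beside 7.28% of all genes, and 8 in DCIS.COM, beside 17.5%. In DCIS.COM the 8 became 5 without control library 1 and 14 without control library 2, where 6721 of all 13771 genes had such a p. The part of proliferation in the EZH2 differences was not tested. In bulk RNA, fewer cells of a state and less RNA per cell cannot be told apart. Basal keratins differed between the lines as well: KRT6A was 124-fold and 94.5-fold lower and KRT14 25.2-fold and 42.3-fold lower in DCIS.COM. Of the 10 epithelial markers 9 were called, beside 38.4% of all genes. In DCIS.COM 4 of them were higher (EPCAM, KRT8, KRT18 and TP63) and 5 lower.

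For 3 of the genes, the 5 genes with the most similar profile were found as the smallest Euclidean distance between log2 CPM profiles centred on their mean over the 8 libraries. Nearest to EZH2 were CENPJ, PYGO2, ZWINT, MPHOSPH9 and AURKA, at distances of 0.11 to 0.14 against a median of 1.42 over all other genes. Nearest to KDM1A were GATD3A, PKP2, DLST, TBC1D15 and NELFE, at 0.08 against a median of 0.92. Nearest to REST were CASP8AP2, PRRC1, RNGTT, PLA2G12A and DNAJC2, at 0.08 to 0.14 against 0.95. The 8 points share 2 lines, and for REST also the shift of DCIS.COM control library 1, so these distances are descriptions only.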

How the data were processed

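The authors aligned the reads to hg19 with Rsubread, used featureCounts on the UCSC known-gene models and normalized the counts in edgeR. They deposited log2 CPM values for 13771 genes in 8 libraries, all genes having a CPM above 0.5 in at least 2 libraries. Whole reads were recovered from the deposited log2 values for 100% of entries within 0.05 of a whole number, and 0 per-sample columns were left unused. Totals of 19306864 to 34884841 reads set the counting error, which is largest in MCF10A pCDH-HOTAIR.

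Contrasts were computed here with limma 3.58.1 in R 4.3.3 on the deposited values (a mean for each of 4 groups, empirical Bayes moderation with a trend on mean expression), adjusted over all genes. The fit was also run on simulated libraries that all had the same spread. They had no shift like that of DCIS.COM control library 1, so that run does not cover it. Lengths, GC content and positions came from GENCODE release 44 on GRCh37, and promoters from RefSeq. The 10 genes and all lists were chosen with earlier results of these data known. From each list the 3 genes with the largest change called under both vectors were named, and of 3 members the 5 nearest profiles. Replicate numbers did not pair the libraries. The values of 1 gene that this rule names are not reported here.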

Additional observations from a re-analysis of the deposited data

How the results depend on the processing

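The HOTAIR results were recomputed under 15 alternatives and with each of the 8 libraries left out. In each line 0 of the 10 genes were called at both thresholds in all of them. The same held over both lines. There and for the interaction all 4 groups enter, so the fit of only the groups compared is no separate alternative. The interaction count was also 0, except that leaving out 1 library in turn gave 0 to 4, the 4 without DCIS.COM pCDH-empty replicate 2. The line counts of 3 and 3 moved only with the fold threshold. At a log2 fold change of 1.5, the threshold in the study's methods, 0 and 0 were called by limma. At an unadjusted p under 0.05 there were 5 and 6 genes, beside 71.0% and 68.7% of all genes. With no fold threshold 5 and 6 were called with the empty and the HOTAIR vector.

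The signs that turned belonged to differences that did not pass in the reported fit. In MCF10A with HOTAIR, RBBP4 turned to 0.0044 with a GC correction and 0.00340 with limma-voom on library totals, and KDM1A to 0.0022 with quantile normalization and 0.021 with limma-voom on library totals. In DCIS.COM with HOTAIR, EZH1 turned to −0.0052 with quantile normalization, SUZ12 to −0.032 with the GC correction, and RCOR1 to 0.026 with limma-voom on library totals and 0.019 with thinned reads. The SUZ12 interaction turned to −0.011 with the GC correction. The JARID2 interaction (−0.01) turned to 0.05 with the GC correction, 0.02 with limma-voom on library totals and 0.03 with thinned reads, and that of RCOR1 to 0.0002 with thinned reads. Over both lines SUZ12 and REST turned with the GC correction, EED with median centring, quantile normalization and the length correction, and RCOR1 with the GC correction, quantile normalization, limma-voom on library totals and thinned reads, all to within 0.05 of 0. Between the lines, EZH1 turned to 0.0079 with the empty vector under quantile normalization and EED to −0.0076 with the HOTAIR vector under a length correction. REST with the empty vector turned to 0.015 with median centring, 0.029 with quantile normalization, 0.00985 with the length correction and 0.13 with the GC correction. The cause was not tested.

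With 1 library left out, differences in MCF10A ranged from −0.071 to 0.0087 for RBBP4 and −0.065 to 0.039 for KDM1A. In DCIS.COM they ranged from −0.016 to 0.10 for EZH1, −0.17 to 0.49 for SUZ12, −0.11 to 0.39 for EED, −0.19 to 0.033 for RBBP4, −0.0083 to 0.27 for RBBP7, −0.18 to 0.00011 for KDM1A, −0.072 to 0.013 for RCOR1 and −0.11 to 0.40 for REST. The interaction ranged from −0.099 to 0.56 for SUZ12 and −0.045 to 0.47 for REST. The empty-vector line difference ranged from −0.22 to 0.44 for SUZ12, −0.49 to 0.0085 for EED and −0.28 to 0.23 for REST, and the extremes of these 3 came from leaving out 1 of the 2 DCIS.COM controls.

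The replicate numbers do not pair the libraries: deviations of same-numbered libraries correlated at −0.016 to 0.066. With the replicate number as a block, 0 of the 10 genes were called in the HOTAIR comparisons and 3 in each line comparison, and KDM1A with the HOTAIR vector no longer passed the adjusted p alone (adjusted p = 0.0695). The EZH2, RCOR1 and JARID2 line calls held in every fit with the 1.5-fold threshold. The RBBP4 and KDM1A line differences, and that of RBBP7 with the empty vector, passed the adjusted p in some fits and not in others. RBBP7 with the HOTAIR vector passed it in every fit. All of these were under 1.5-fold.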
